A study of Mus musculus with 4 samples.

Results

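Hox genes encode homeodomain transcription factors that give cells a position along the body axis and along the limb. In the mouse they lie in 4 clusters named A to D, and 37 of them are described here, out of 19938 genes with a probe set of their own on the array. They were chosen by symbol alone, from probe sets to which the platform annotation gives a single gene symbol, and each of the 37 had exactly 1 such probe set. Hoxb8 shared its probe set with Hoxb7 and was not analysed here. By cluster, 10 members belonged to A, 9 to B, 9 to C and 9 to D.

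RNA came from cultured C57BL/6 mouse cells, with 1 Affymetrix whole-transcript gene array per group. The groups were plastic-adherent mesenchymal stem cells (MSC) flushed from the marrow of femurs and tibiae and grown with bFGF (basic fibroblast growth factor, also FGF2), used at 1 ng/ml, the same kind of MSC grown without bFGF, osteoblasts released by trypsin and collagenase from newborn calvariae, the bones of the skull vault, and embryonic stem cells. The labels do not state the age of the marrow donors, whether donors were pooled or how the embryonic stem cells were grown. The series was set up to compare bFGF effects on marrow MSC, and the osteoblasts and embryonic stem cells are labelled as controls. Since every group has 1 array, groups could not be tested against each other, no difference has a replicate check, and no SD or p-value is given.

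Within each cluster the genes carry paralogue numbers from 1 to 13, and genes with the same number in different clusters descend from a common ancestor. Low numbers lie at the 3′ end and are used towards the head, and high numbers lie at the 5′ end and are used towards the tail, an arrangement known as collinearity. In limbs the genes numbered 9 and 10 act mainly in the upper segment, those numbered 11 in the middle segment and those numbered 13 in the hand and foot. Most of the skull vault forms without Hox expression, while mesenchymal cells of the trunk and limbs keep a Hox code in culture that reflects where they came from. In embryonic stem cells the clusters are held silent by Polycomb complexes. Members are grouped below as anterior (numbers 1 to 3), central (4 to 8) and posterior (9 to 13), and, per a RefSeq gene table of the assembly GRCm38.p6, cluster A lies on chromosome 6, B on 11, C on 15 and D on 2.

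Values are log2 levels made by the authors with RMA, so a difference of 1 is 2-fold. A floor for signal was set in each array at the median of its probe sets with 1 symbol, which was 6.32 for MSC with bFGF, 6.29 for MSC without bFGF, 6.46 for osteoblasts and 6.46 for embryonic stem cells. A gene was called higher or lower in a comparison where the log2 difference reached 1 and the higher array lay above its floor. As a measure of noise at low levels, the central 95% of differences over 1190 receptor genes of smell and pheromone sensing (Olfr and Vmn families), mostly silent outside sensory neurons, is given beside each comparison. The spread between cultures is not measured by it.

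The labels were checked against marker genes. Embryonic stem cells had Pou5f1 at 10.63, Nanog at 9.24 and Tdgf1 at 11.29, while Zfp42 and Esrrb were under the floor. In osteoblasts Col1a1 stood at 12.60, but Sp7, Ibsp, Dmp1 and Alpl were all under the floor. Of 7 MSC surface markers, 5 were above the floor in MSC with bFGF and 3 in MSC without. Vcam1, Pdgfra and Pdgfrb were above it in both MSC arrays, and Thy1 and Lepr were under it in both. Nt5e and Eng were above it with bFGF and under it without. All 10 macrophage markers lay above the floor in osteoblasts, at 9.77 to 12.11, as did 9 of 10 in MSC with bFGF (4.92 to 11.16 over all 10), 6 of 10 in MSC without bFGF (4.63 to 8.38) and 9 of 10 in embryonic stem cells (6.02 to 9.05). Of 8 fibroblast markers 7 were above the floor in embryonic stem cells, among them Col1a1 at 10.92. In such bulk samples fewer expressing cells and less RNA per cell cannot be told apart.

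Few Hox genes had signal above the floor in any array, and those that did lay mostly in the MSC. In MSC with bFGF 13 of 37 were above the floor, in MSC without bFGF 12, 2 in the osteoblast array and 7 in that of embryonic stem cells, against 49.6%, 49.7%, 50% and 49.7% of all genes. Only Hoxa4 and Hoxc8 were above it in all 4 arrays, and 21 genes were above it in none. Those 21 were not all flat: their range over the 4 arrays went from 0.12 to 1.71, with a median of 0.67. The other members above the floor somewhere were Hoxa7, Hoxa9, Hoxa10, Hoxb1, Hoxb3, Hoxb7, Hoxb9, Hoxc5, Hoxc6, Hoxc9, Hoxc10, Hoxc13, Hoxd8 and Hoxd10.

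**Figure D1:**
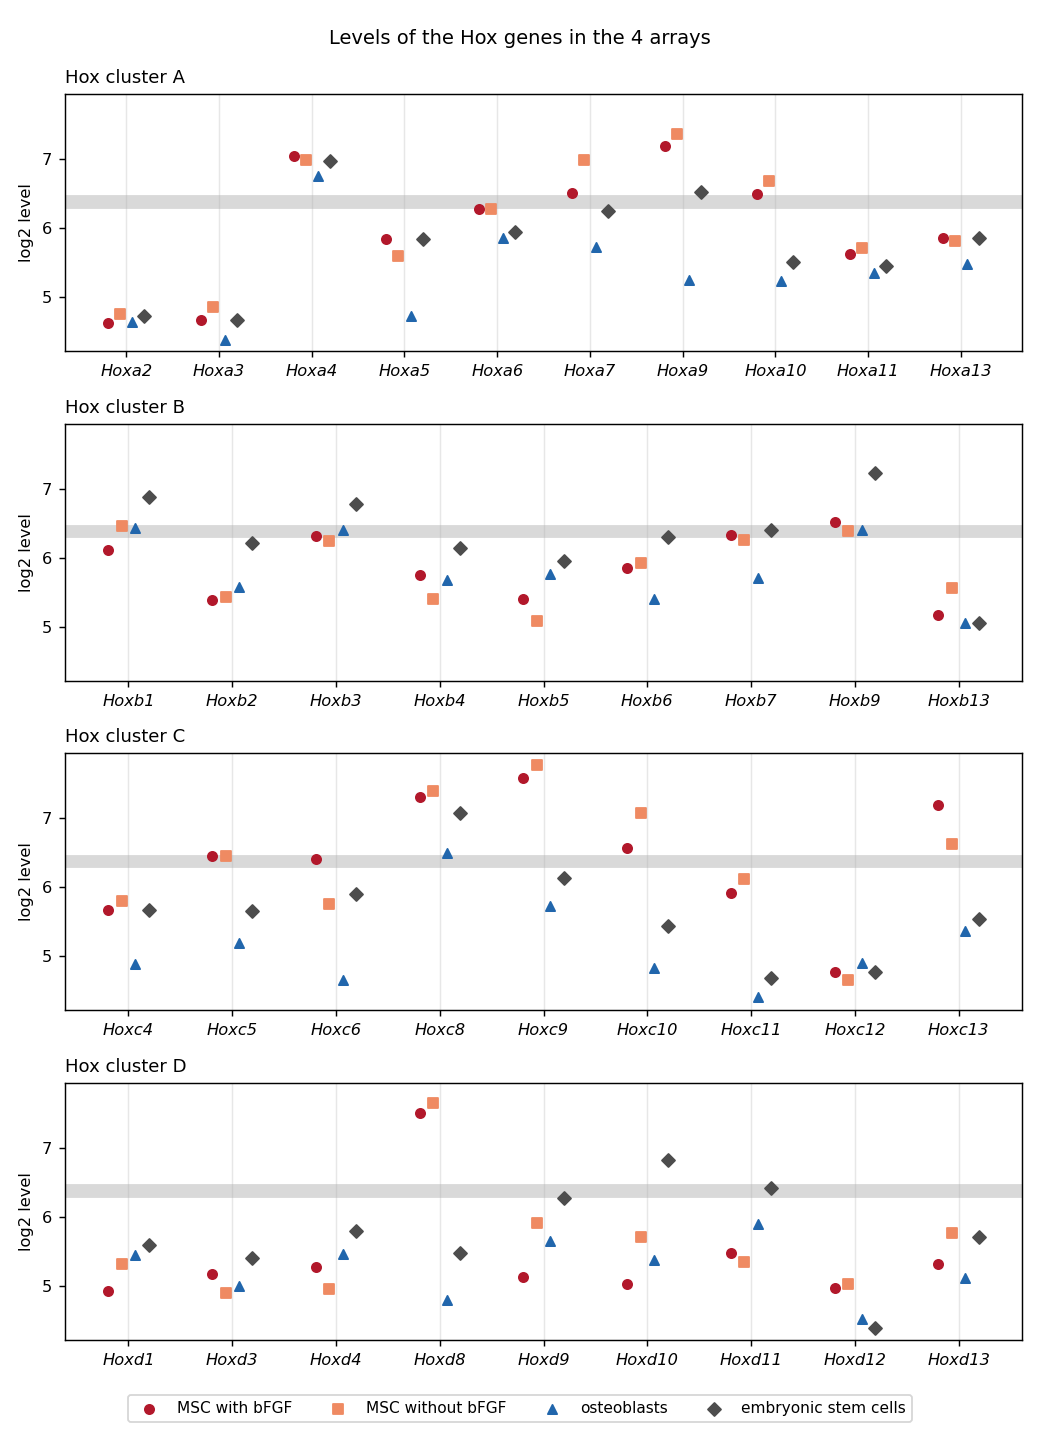
Log2 level (vertical axis) of each Hox gene in MSC with bFGF, MSC without bFGF, osteoblasts and embryonic stem cells, 1 point per array, by cluster and in order of paralogue number. The grey band spans the floors of the 4 arrays, 6.29 to 6.46; osteoblasts have 2 genes above their floor and MSC with bFGF have 13.

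The array with the lowest level was that of osteoblasts for 22 of the 37 genes, against 24.6% of all genes. It was that of MSC with bFGF for 6, of MSC without bFGF for 8 and of embryonic stem cells for 1, against 25.1%, 19.3% and 31%. By cluster these were 9 of 10 genes in A and 8 of 9 in C, but 3 of 9 in B and 2 of 9 in D. Both MSC arrays stood above both controls for 16 of 37 Hox genes, against 24.4% of all genes. Of these 7 were in cluster A, 6 in C, 1 in B and 2 in D. Only 10 of the 16 had a level above the floor in any array. Embryonic stem cells had the highest level for 8 of 9 genes in cluster B and 6 of 9 in cluster D, against 25.1% of all genes. Among these only Hoxb1, Hoxb3, Hoxb9 and Hoxd10 were above the floor in embryonic stem cells. In all, the highest level was that of MSC with bFGF for 6 genes, MSC without bFGF for 15, osteoblasts for 1 and embryonic stem cells for 15, against 16.7%, 28.6%, 29.6% and 25.1% of all genes. Both MSC arrays stood below both controls for 7 Hox genes, against 21.3% of all genes, with 3 in B, 3 in D, 1 in C and 0 in A. Of these 7 only Hoxb3 had a level above the floor in any array. All these orders count genes whatever the size of the difference and whether or not they had signal.

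The first comparison asked how marrow MSC of the leg differ from osteoblasts of the skull, and cluster C differed most. In MSC with bFGF 8 of 37 Hox genes were 2-fold or more higher than in osteoblasts and 0 were lower. Over all genes 4.06% were higher and 5.26% lower; among genes above the floor these shares were 7.5% and 9.71%, with 13 Hox genes there. In MSC without bFGF 8 of 37 were again higher and 0 lower, against 4.49% and 7.29% of all genes, or 8.17% and 13.3% of those above the floor, where 11 Hox genes lay. These comparisons share the osteoblast array. The median difference of the 37 genes was 0.29 with bFGF (0.49 with a loess curve of difference on level removed) and 0.48 without, and that of all genes -0.07 and 0.03. Above 0 were 26 Hox genes with bFGF, against 45.1% of all genes and 32.9% of those under the floor in both arrays, and 27 without bFGF, against 52% and 47.6%. Receptor genes spanned -0.87 to 0.73 in the central 95% for MSC with bFGF and -0.76 to 1.01 for MSC without.

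Cluster C had a median difference from osteoblasts of 1.50 in MSC with bFGF and 1.26 in MSC without, and 8 of its 9 genes were above 0 in each. Hoxc9, which acts in the thoracic region, stood at 7.59 in MSC with bFGF, 7.77 in MSC without bFGF, 5.73 in osteoblasts and 6.14 in embryonic stem cells. Both MSC arrays were above osteoblasts, 3.63-fold and 4.13-fold, with both controls under the floor. Hoxc10, a gene of the lumbar region and hindlimb, stood at 6.56, 7.08, 4.83 and 5.44 in the same order of arrays. Its difference from osteoblasts was 1.73 with bFGF and 2.25 without. Hoxc13, best known for its part in hair and nail formation, stood at 7.19, 6.63, 5.36 and 5.53. It was 3.54-fold and 2.41-fold higher than in osteoblasts in MSC with and without bFGF. Between the last pair lies Hoxc11, with levels of 5.91, 6.12, 4.41 and 4.68. Differences of 1.50 and 1.71 were similar in size to those of Hoxc10 and Hoxc13, but all 4 levels were under the floor, so it was not called.

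Hoxc12 was the exception in this stretch, with levels of 4.77 in MSC with bFGF, 4.65 in MSC without bFGF, 4.90 in osteoblasts and 4.77 in embryonic stem cells, all under the floor. Its neighbours on both sides of the chromosome, Hoxc13 and Hoxc11, were higher in MSC by at least 1.27. Towards the 3′ end, Hoxc8, a gene of the thoracic and brachial region, stood at 7.30, 7.40, 6.49 and 7.08, above the floor in every array and less than 2-fold apart. Hoxc5 stood at 6.45, 6.45, 5.19 and 5.66, which put both MSC arrays 1.26 above osteoblasts. Hoxc6, active in the upper trunk, stood at 6.40, 5.75, 4.66 and 5.91, and its difference from osteoblasts was 1.75 with bFGF and 1.10 without. Only the value with bFGF was called, because without bFGF the level was under the floor. Hoxc4, at 5.67, 5.80, 4.89 and 5.67, was under it throughout, with differences of 0.78 and 0.91.

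Cluster A repeated this in a shorter stretch, from Hoxa7 to Hoxa10. Hoxa9, a regulator of limb and axial pattern and of blood stem cells, stood at 7.19 in MSC with bFGF, 7.36 in MSC without bFGF, 5.25 in osteoblasts and 6.53 in embryonic stem cells. Differences from osteoblasts were 1.94 and 2.10. Hoxa10, which patterns the lumbar spine, upper leg and uterus, stood at 6.49, 6.69, 5.23 and 5.51, or 1.26 and 1.46 above osteoblasts. Hoxa7, a trunk gene, stood at 6.52, 6.98, 5.72 and 6.25, and only MSC without bFGF passed 2-fold, with differences of 0.79 and 1.26. Beyond this stretch 0 genes of the cluster were called. Hoxa11 and Hoxa13, which act in the middle and end segments of the limb, differed from osteoblasts by 0.28 and 0.38 in MSC with bFGF and by 0.37 and 0.34 in MSC without, all from levels under the floor. Hoxa5, which is needed for lung and shoulder girdle development, differed by 1.12 and 0.86, also under the floor. Hoxa6, at 6.28 in both MSC arrays, lay just under it, with differences of 0.43 in each. Hoxa4 was above the floor everywhere, at 7.05, 6.98, 6.76 and 6.97, and its range of 0.29 over the arrays was among the smallest. The anterior genes Hoxa2, which shapes the second branchial arch, and Hoxa3 were under the floor in all arrays.

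**Figure D2:**
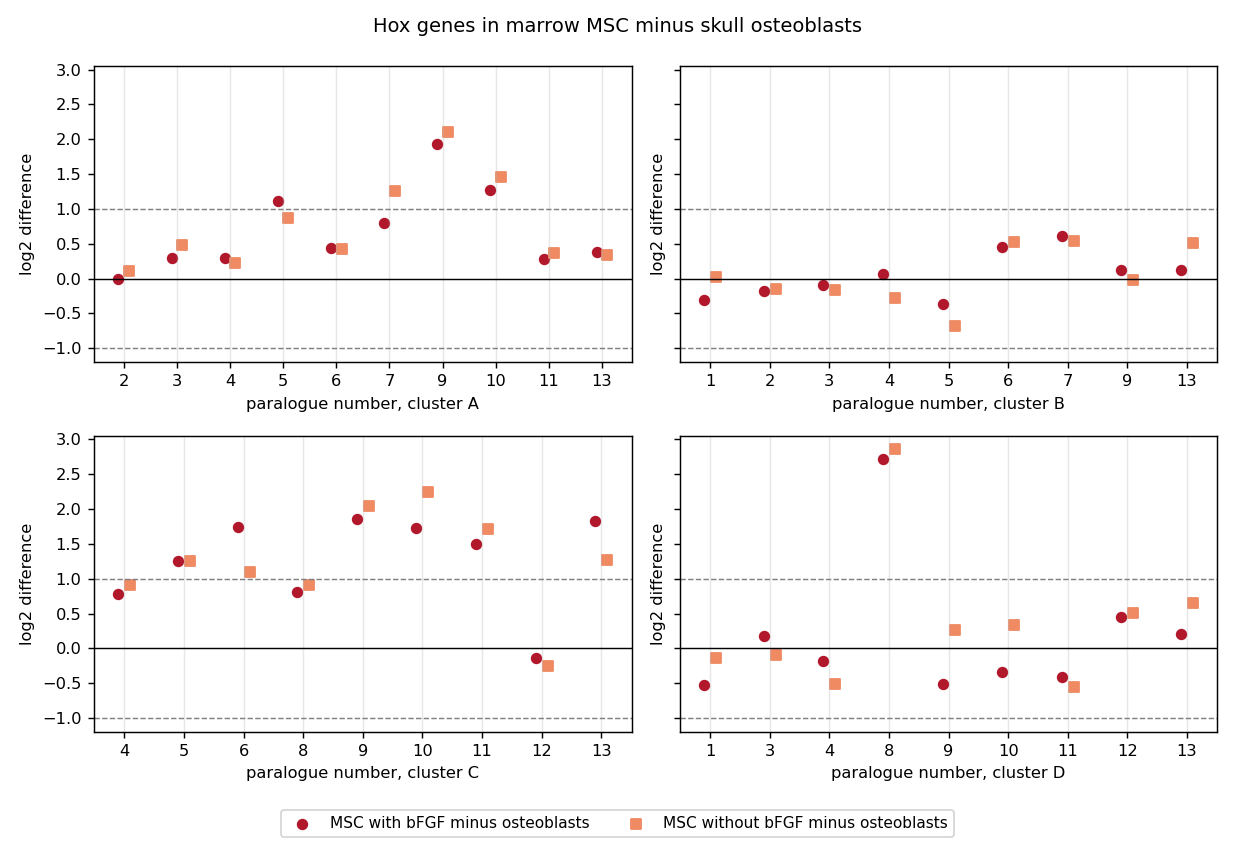
Log2 difference from osteoblasts (vertical axis) of each Hox gene by cluster and paralogue number, for MSC with bFGF and MSC without bFGF, 1 point per array pair; dashed lines mark 2-fold. Cluster C stands apart from cluster B, where differences stay between -0.68 and 0.61, and in cluster D only Hoxd8 passes the line.

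In cluster D a single gene differed, and by more than any other Hox gene. Hoxd8, which acts in the trunk, stood at 7.51 in MSC with bFGF, 7.64 in MSC without bFGF, 4.79 in osteoblasts and 5.48 in embryonic stem cells. MSC were 6.60-fold and 7.25-fold above osteoblasts, with both controls under the floor, so the size of the fold rests on values under the floor. The other 8 genes of the cluster differed from osteoblasts by -0.53 to 0.45 in MSC with bFGF and by -0.55 to 0.66 in MSC without. Among these, Hoxd9 to Hoxd13, genes of limb growth and digits, stayed below the floor in each MSC culture.

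Cluster B had 0 genes at 2-fold in either MSC comparison, with median differences from osteoblasts of 0.06 with bFGF and -0.01 without. Hoxb9, of the thoracic region, stood at 6.52 in MSC with bFGF, 6.39 in MSC without bFGF, 6.41 in osteoblasts and 7.23 in embryonic stem cells. Hoxb7, another trunk gene, stood at 6.32, 6.26, 5.71 and 6.40, all near or under the floor. Hoxb1, which specifies a segment of the hindbrain, stood at 6.12, 6.46, 6.43 and 6.87, and Hoxb3 at 6.31, 6.24, 6.40 and 6.77. Hoxb4, known for its effect on blood stem cells, was under the floor in every array.

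Genes with the same paralogue number differed between clusters. Among number 9, Hoxa9 and Hoxc9 were called higher than in osteoblasts in both MSC arrays, while the differences of Hoxb9 were 0.12 and -0.01 and those of Hoxd9 -0.51 and 0.27. With number 10, Hoxa10 and Hoxc10 were called, and Hoxd10 differed by -0.34 and 0.33. For number 8, Hoxd8 was called and Hoxc8 differed by 0.81 and 0.91. Of the number 13 genes Hoxc13 was called, and Hoxa13, Hoxb13 and Hoxd13 stayed within 0.66. In all, 0 of 7 anterior genes, 3 of 14 central and 5 of 16 posterior genes were called higher than in osteoblasts in each MSC array. Of all genes 4.06% were with bFGF and 4.49% without. The posterior genes were the same in both arrays. The central genes were Hoxc5, Hoxc6 and Hoxd8 with bFGF and Hoxa7, Hoxc5 and Hoxd8 without.

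The macrophage list differed in this comparison too, but by unlike amounts in the MSC arrays. Of its 10 markers 5 were called lower than in osteoblasts in MSC with bFGF, where the median difference was -0.999935. All 10 were called lower in MSC without bFGF, where the median difference was -3.88. Of all genes above the floor 9.71% were lower with bFGF and 13.3% without. The Hox genes called higher differed from osteoblasts by 1.26 to 2.72 with bFGF and by 1.26 to 2.86 without. Spi1, the factor of the macrophage lineage, stood at 7.75 with bFGF, 5.52 without and 8.99 in osteoblasts. Fibroblast markers were lower in the MSC than in osteoblasts too, with median differences of -3.19 and -2.91 over 8 genes. Their part in the Hox differences was not tested.

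The promoters of Hoxd8, Hoxa9 and Hoxd10 are shown for their base composition, because CpG-rich stretches are where Polycomb complexes bind in Hox clusters. Hoxd8 and Hoxa9 were called higher in both MSC arrays than in osteoblasts. Hoxd10 was called lower in both MSC arrays than in embryonic stem cells. Against embryonic stem cells Hoxd8 was called higher in MSC too, but Hoxa9, at 0.66 with bFGF and 0.83 without, was not. Each runs from 250 bases before to 50 after the gene start in RefSeq, build GRCm38.p6, on the strand of the gene, with CpG pairs in capitals. They lie at chr2:74704365-74704664 (plus strand) for Hoxd8, chr6:52227321-52227620 (minus strand) for Hoxa9 and chr2:74691641-74691940 (plus strand) for Hoxd10.
Hoxd8: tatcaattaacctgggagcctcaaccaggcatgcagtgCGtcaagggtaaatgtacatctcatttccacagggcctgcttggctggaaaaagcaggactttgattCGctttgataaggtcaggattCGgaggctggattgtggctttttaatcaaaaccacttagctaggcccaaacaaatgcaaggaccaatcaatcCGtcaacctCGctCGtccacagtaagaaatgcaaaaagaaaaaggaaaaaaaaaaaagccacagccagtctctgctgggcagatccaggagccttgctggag
Hoxa9: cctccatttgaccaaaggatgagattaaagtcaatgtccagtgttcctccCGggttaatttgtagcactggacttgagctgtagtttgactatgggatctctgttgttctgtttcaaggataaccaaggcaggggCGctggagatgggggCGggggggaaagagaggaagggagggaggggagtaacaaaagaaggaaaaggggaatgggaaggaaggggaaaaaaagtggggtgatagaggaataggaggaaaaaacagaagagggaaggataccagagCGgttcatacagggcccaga
Hoxd10: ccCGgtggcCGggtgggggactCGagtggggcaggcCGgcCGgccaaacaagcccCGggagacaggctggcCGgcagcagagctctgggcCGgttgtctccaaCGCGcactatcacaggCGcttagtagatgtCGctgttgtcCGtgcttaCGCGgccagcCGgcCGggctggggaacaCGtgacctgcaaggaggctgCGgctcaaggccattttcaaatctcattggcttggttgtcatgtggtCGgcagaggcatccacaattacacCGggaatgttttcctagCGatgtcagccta
These windows held 6 CpG pairs at Hoxd8, 4 at Hoxa9 and 22 at Hoxd10. The table also holds Hoxa7 and Hoxa10, which were called higher than in osteoblasts in at least 1 MSC array. Hoxa7 had 9 and the windows of Hoxa10, at separate starts, had 21 and 12, so low counts were not common to such genes. The median over 24 Hox promoter windows, from the 22 Hox genes that the table holds, was 14.5 pairs, and that over 32851 windows of all genes was 7. Of cluster C only Hoxc4 was in the table, with 9 pairs. The letters TGATNNAT, a motif that Hox proteins bind together with Pbx partners, were searched on both strands. They were found in 4 of the 24 Hox windows, or 16.7%, against 8.85% of all windows, and in none of the 3 shown. These matches describe the letters and not binding.

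Against embryonic stem cells the Hox genes of the MSC went in both directions. In MSC with bFGF 4 of 37 were called higher and 1 lower, where 6.2% and 5.8% of all genes were. Among genes above the floor these shares were 11.3% and 10.6%, with 15 Hox genes there. In MSC without bFGF 5 were higher and 1 lower, against 5.71% and 6.51% of all genes. Among genes above the floor the shares were 10.4% and 11.8%, with 14 Hox genes there. Receptor genes spanned -0.72 to 0.82 and -0.71 to 1.09. Above 0 were 18 Hox genes with bFGF, against 50.8% of all genes and 43% of those under both floors, and 19 without, against 56.1% and 56.5%. The median Hox difference was near 0 in both, and its sign turned with the scaling. Over all genes above the floor the median difference was 0.12 with bFGF and 0.10 without, and Hox differences are given without taking this shift off. The genes called higher were Hoxc9, by 1.45 with bFGF and 1.64 without, Hoxc10, by 1.12 and 1.64, Hoxc13, by 1.65 and 1.10, and Hoxd8, by 2.03 and 2.16. Hoxa10 was 1.18 higher without bFGF and 0.98 with it, just short of 2-fold. Both MSC arrays thus stood 2-fold or more above both controls for 4 of 37 Hox genes, Hoxc9, Hoxc10, Hoxc13 and Hoxd8. Of all 19938 genes 1.48% had this pattern with a level above the floor in any array, and the reverse held for 0 of 37 Hox genes against 1.6%.

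Hoxd10 was the gene called lower. It stood at 5.02 in MSC with bFGF, 5.70 in MSC without bFGF, 5.37 in osteoblasts and 6.83 in embryonic stem cells. Only that last level was above its floor. The difference was -1.81 with bFGF and -1.13 without. Its neighbours Hoxd9 and Hoxd11 differed from embryonic stem cells by -1.14 and -0.95 in MSC with bFGF and by -0.36 and -1.08 in MSC without, from levels under the floor. Hoxd8, next to Hoxd9 on the chromosome, went the other way. In cluster B 8 of 9 genes were below the embryonic stem cell level in each MSC array, by up to 0.83 with bFGF and 0.86 without, and 0 reached 2-fold.

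Osteoblasts were lower than embryonic stem cells for 35 of 37 Hox genes, with a median difference of -0.44. The 2 above 0 stand against 55.2% of all genes and 59.7% of those under both floors, and the median of all genes was 0.07. Receptor genes spanned -0.67 to 0.85, and 9 Hox genes lay below that range. Called lower were 2 of 37 genes, against 4.84% of all genes or 8.83% of those above the floor, where 7 Hox genes lay. Called higher were 0, against 6.73% or 12.3%. The genes called lower were Hoxa9 (-1.28) and Hoxd10 (-1.46). Hoxa5 and Hoxc6 differed by -1.12 and -1.25 from levels under the floor. Fibroblast markers were above the floor for 8 of 8 genes in osteoblasts and 7 of 8 in embryonic stem cells, and the macrophage list was higher in osteoblasts by a median of 3.53. What these markers contribute to the Hox levels was not tested.

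**Figure D3:**
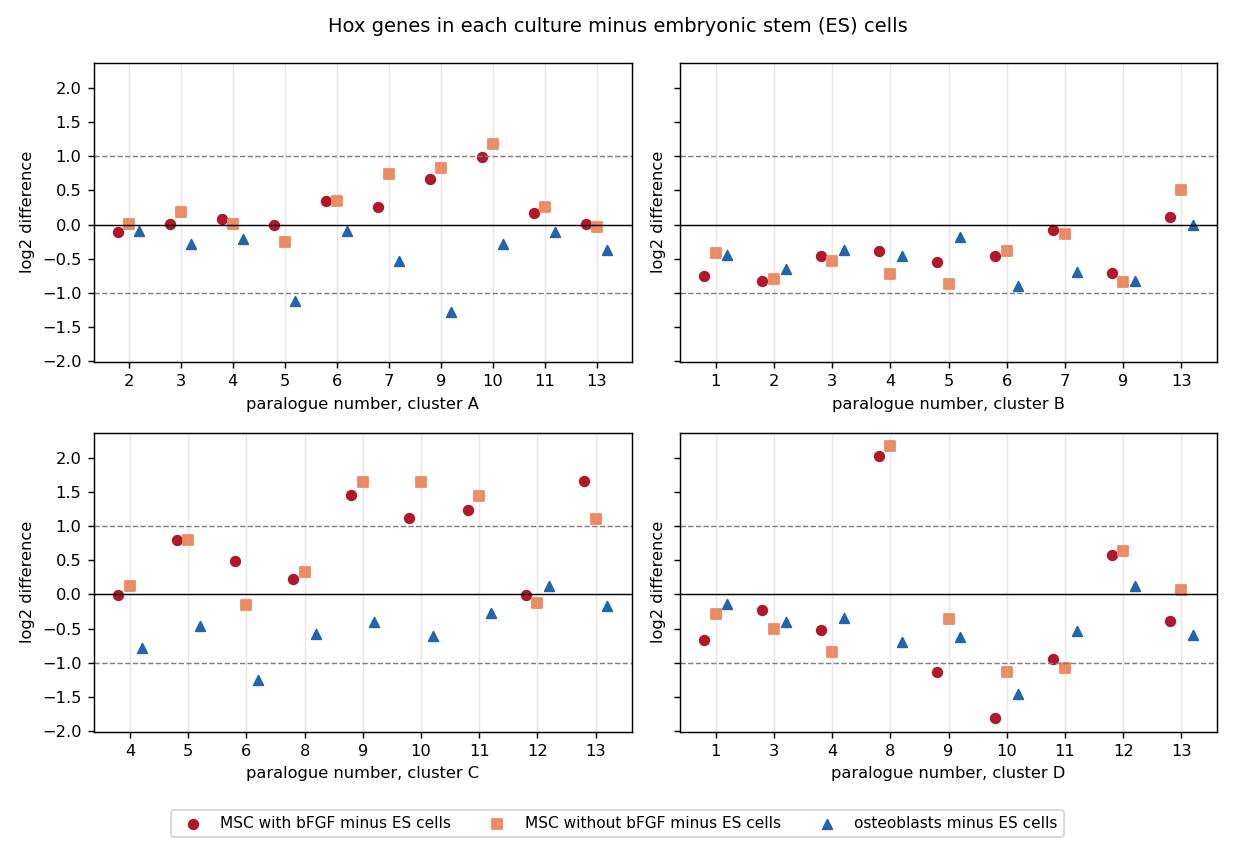
Log2 difference from embryonic stem (ES) cells (vertical axis) of each Hox gene by cluster and paralogue number, for MSC with bFGF, MSC without bFGF and osteoblasts; dashed lines mark 2-fold. Hoxd8 reaches 2.03 and 2.16 in MSC with and without bFGF while Hoxd10 lies at -1.81 and -1.13, and 35 of 37 osteoblast points lie below 0.

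The comparison that the series was designed for, MSC with against without bFGF, had 0 Hox genes at 2-fold in either direction. Over all genes 2.15% were higher and 0.246% lower, or 4.09% and 0.467% of those above the floor, where 14 Hox genes lay. The 37 differences ran from -0.78 to 0.65 with a median of -0.07, and 16 were above 0, against 42.9% of all genes and 35.8% of those under both floors. The direction of this median depends on the scaling: with a loess curve of difference on level removed it was 0.05, with 21 genes above 0. All lay inside the central 95% of receptor genes, -0.97 to 0.67. The largest difference towards bFGF was that of Hoxc6, at 6.40 with bFGF against 5.75 without (0.65). Hoxc13 came next, at 7.19 with bFGF against 6.63 without (0.55). Towards MSC without bFGF, Hoxd9 differed by -0.78 and Hoxd10 by -0.68, both under the floor in both arrays. Of genes above the floor Hoxc10 differed by -0.52 and Hoxa7 by -0.47. Hoxd8 and Hoxc9, among the genes furthest above the controls, differed by -0.14 and -0.19.

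The macrophage markers did differ between the MSC arrays, by a median of 3.02 with 9 of 10 higher with bFGF. Haematopoietic progenitor markers, some of which accompany Hoxa9 in blood stem cells, had signal for 3 of 8 genes with bFGF and 2 of 8 without. Gata2, at 6.66 with bFGF and 6.71 without, and Meis1, at 7.07 and 6.79, were above the floor in both MSC arrays. Spi1 was above it with bFGF only, at 7.75 against 5.52. Kit, Cd34, Flt3, Mpo and Myb had no signal above the floor in either MSC culture.

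**Figure D4:**
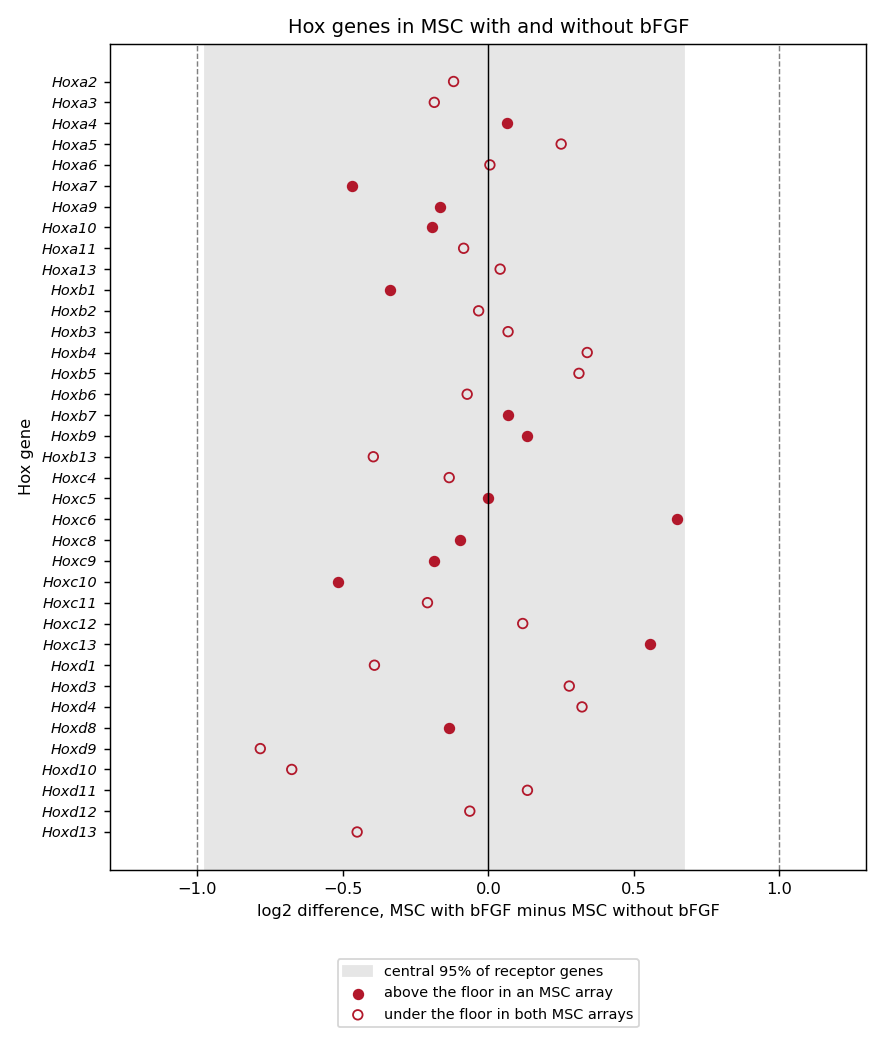
Log2 difference (horizontal axis) of each Hox gene, MSC with bFGF minus MSC without bFGF; filled points are genes above the floor in at least 1 MSC array, open points those under it in both, dashed lines mark 2-fold and the grey band is the central 95% of receptor genes, -0.97 to 0.67. All 37 points lie inside the band.

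The clusters also hold microRNA genes, whose mature products repress Hox and other transcripts. Mature sequences from RefSeq, build GRCm38.p6, are shown because the genes fall into seed families that repeat across clusters, with the seed, bases 2 to 8, in capitals.
miR-10a-5p, cluster B: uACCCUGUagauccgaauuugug
miR-10b-5p, cluster D: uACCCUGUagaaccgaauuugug
miR-196a-5p, clusters B and C: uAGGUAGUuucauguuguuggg
miR-196b-5p, cluster A: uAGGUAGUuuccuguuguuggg
miR-615-3p, cluster C: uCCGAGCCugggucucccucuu
miR-10a-5p and miR-10b-5p share a seed and differ at a single base, U12A, counted from the 5′ end. In the miR-196 family the single difference is A12C. The mature forms lie at chr11:96317186-96317208 (plus strand) for miR-10a-5p, chr2:74726074-74726096 (plus) for miR-10b-5p, chr11:96265187-96265208 and chr15:102973365-102973386 (both plus) for miR-196a-5p, chr6:52230129-52230150 (minus) for miR-196b-5p and chr15:103014969-103014990 (plus) for miR-615-3p. Of 6 microRNA genes measured, 5 were under the floor in all arrays. Mir196b, which lies between Hoxa9 and Hoxa10, stood at 5.40 in MSC with bFGF, 5.22 in MSC without bFGF, 4.95 in osteoblasts and 4.86 in embryonic stem cells. Mir615, in Hoxc5, stood at 7.28, 7.22, 6.86 and 6.97, above the floor in each. All 6 were higher in both MSC arrays than in osteoblasts, by medians of 0.44 with bFGF and 0.40 without. Above 0 were 45.1% of all genes with bFGF and 52% without. Among genes under both floors these shares were 32.9% and 47.6%. The microRNA differences lay inside the receptor gene ranges, which ended at 0.73 with bFGF and 1.01 without. At 2-fold there were 0, where 4.06% and 4.49% of all genes were called higher. Whether the microRNA probe sets read the mature form was not tested. The 5 long noncoding genes of the clusters that were measured, Hottip, Haglr, Hoxaas2, Hoxd3os1 and 5730596B20Rik, were under the floor in every array.

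Hox proteins bind DNA with TALE homeodomain partners of the Pbx, Meis and Pknox families. Of 8 measured, Meis2 was called higher in the MSC: it stood at 8.26 with bFGF, 8.55 without, 6.97 in osteoblasts and 6.05 in embryonic stem cells. Of all genes above the floor, 7.5% with bFGF and 8.17% without were higher than in osteoblasts. Against embryonic stem cells these shares were 11.3% and 10.4%. Meis1, the partner of Hoxa9 in leukaemia, stood at 7.07, 6.79, 6.57 and 6.72, less than 2-fold apart. Pbx3 was lower in MSC without bFGF than in embryonic stem cells (-1.81), at 5.95 against 7.76, where 11.8% of all genes above the floor were lower. Between the MSC arrays 0 of the 8 reached 2-fold, where 4.09% of all genes above the floor were higher and 0.467% lower.

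Polycomb and Trithorax proteins keep Hox genes off and on. Set against osteoblasts, 4 of 25 Polycomb genes were higher with bFGF and 0 lower, while without bFGF 5 were higher and 1, Jarid2, lower (-1.07). Of all genes above the floor 7.5% were higher and 9.71% lower with bFGF, and 8.17% and 13.3% without, and all 25 were above it. Bmi1, a core subunit of Polycomb complex 1, stood at 9.83 in MSC with bFGF, 9.86 in MSC without bFGF, 8.69 in osteoblasts and 7.72 in embryonic stem cells. Pcgf5, a related subunit, was higher than in osteoblasts by 1.89 and 2.21, Pcgf6 by 1.69 and 1.48, and Pcgf1 by 1.05 and 1.04. Mtf2, which helps recruit complex 2, was higher by 1.03 without bFGF. Against embryonic stem cells 3 were higher in each MSC array. These were Bmi1 (2.10), Cbx8 (1.38) and Scmh1 (1.18) with bFGF, and Bmi1 (2.14), Pcgf5 (1.31) and Cbx8 (1.29) without. With 24 of the 25 above the floor, these 3 are close to the 11.3% with bFGF and 10.4% without of all such genes that were higher. In each array 4 were lower, where 10.6% and 11.8% of all such genes were, namely Jarid2 (-3.17 and -3.62), Cbx7 (-1.63 and -1.25), Phc1 (-1.60 and -1.53) and Ezh2 (-1.14 and -1.58), the methyltransferase of complex 2. Osteoblasts had 7 lower and 0 higher, with Jarid2 (-2.55), Phc1 (-1.96), Pcgf6 (-1.88) and Mtf2 (-1.80) furthest down, against 8.83% of all genes above the floor that were lower and 12.3% higher. Of 14 Trithorax genes, 2 were higher than in osteoblasts in MSC with bFGF, Psip1 (1.57) and Kmt2d (1.03), and 1 in MSC without, Psip1 (1.49). Of all genes above the floor 7.5% and 8.17% were. Differences from osteoblasts were above 0 for 14 of 14 with bFGF and 12 without, against 45.1% and 52% of all genes. Against embryonic stem cells 5 were above 0 in each MSC array and 0 in osteoblasts, against 50.8%, 56.1% and 55.2% of all genes. Embryonic stem cells stood above osteoblasts for Psip1 (-2.06) and Dpy30 (-1.13), and above MSC without bFGF for Dot1l (-1.21). Of all genes above the floor, 8.83% were lower in osteoblasts and 11.8% in MSC without bFGF. Between the MSC arrays 0 of these 39 genes reached 2-fold, where 4.09% of all genes above the floor were higher and 0.467% lower.

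Among 9 embryonic patterning genes, listed as possible upstream regulators of Hox genes, 3 were lower than in embryonic stem cells in each of the other arrays. They were Cdx2, Gsc and Nr6a1, and whether they act on Hox genes here was not tested. Above the floor were 7 of the 9, and of all such genes 10.6% were lower in MSC with bFGF, 11.8% in MSC without bFGF and 8.83% in osteoblasts. Cdx2, a caudal factor that activates posterior Hox genes, stood at 5.46 in MSC with bFGF, 5.89 in MSC without bFGF and 5.80 in osteoblasts, against 7.98 in embryonic stem cells. Genes that flank the clusters were counted as well. Of 17 measured, 1 was higher than in osteoblasts in MSC with bFGF and 2 in MSC without, and 0 were lower. With 13 above the floor, the count with bFGF is at the 7.5% of all such genes, and 8.17% were higher without bFGF. Calcoco1, which lies beyond Hoxc13, was higher by 1.19 and 1.29, and Smug1, beyond Hoxc4, by 1.05 without bFGF. Against embryonic stem cells, where 11.3% and 10.4% of all genes above the floor were higher, 4 of 13 were higher with bFGF, Skap2 (1.51), Calcoco1 (1.20), Lnpk (1.15) and Snx10 (1.12), and 3 without, Calcoco1 (1.29), Skap2 (1.13) and Tax1bp1 (1.02). In osteoblasts Skap2 was higher than there (1.66) and Cbx5 (-1.44) and Cbx1 (-1.02) lower. Mtx2, beyond Hoxd1, stood at 9.22 in MSC with bFGF, 9.25 in MSC without bFGF, 8.56 in osteoblasts and 8.67 in embryonic stem cells, and Evx2, beyond Hoxd13, at 6.84, 6.90, 6.78 and 6.61.

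Other position genes gave a limited picture. Pitx1, the hindlimb factor, stood at 7.00 in MSC with bFGF, 7.38 in MSC without bFGF, 6.40 in osteoblasts and 6.53 in embryonic stem cells, less than 2-fold apart, while the limb genes Tbx4 and Tbx5 were under the floor in all arrays. Zic1 and Six2, genes of the skull and its neural crest, were lower than in osteoblasts. The level of Zic1 was 4.85 with bFGF and 5.34 without it, against 7.77 in osteoblasts, differences of -2.92 and -2.43. The levels of Six2 were 5.74 and 6.23 against 8.34, differences of -2.60 and -2.11.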

How the data were processed

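The deposited table held log2 levels per probe set for 4 arrays; per the submitters' processing notes the authors made them with Affymetrix Expression Console and RMA, which corrects background and makes the distributions of arrays alike. The log2 scale was inferred from values of 1.40 to 14.28, and the sources used here give no software versions. Of 35556 probe sets 21789 had 1 gene symbol; each gene took its probe set with the highest mean, and all Hox genes had only 1. From these levels, differences, floors and calls at 2-fold were computed over 19938 genes, with counts over all genes as background. The counting was tested on simulated data. No test between groups was possible, and the number of arrays limits the precision.

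Members and lists were chosen with earlier results of these data known. Named genes were all Hox genes above the floor in any array or called in any comparison, and up to 4 called members each way of the lists, plus limb and skull genes; other Hox genes, Mir196b, Mir615, Meis1, Mtx2 and Evx2 were named after their values were seen. Alternatives were the mean of probe sets, no floor, a floor at the 75th percentile, median centring and removing a loess curve (span 0.3). Sequences came from RefSeq tables. Python 3.11.15 was used, with pandas 2.3.3 and numpy 2.4.6 for the calculations, statsmodels 0.14.6 for loess and matplotlib 3.10.9 for figures.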

Additional observations from a re-analysis of the deposited data

How the results depend on the processing

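Averaging probe sets per gene could not change a Hox value, because each Hox gene had only 1, so it was no check of the Hox results. With median centring or a loess curve removed, the Hox counts at 2-fold stayed within 1.5 times in all 6 comparisons. The Hox medians moved by less than the SD that probe sets of the same gene show (0.29 to 0.42), but some turned in sign or moved by over 1.5 times. That SD describes single probe sets, so it is a wide limit for a median of 37 genes and does not show the medians to be stable. With a loess curve removed, the median of MSC with minus without bFGF was 0.05 in place of -0.07, that of MSC with bFGF minus osteoblasts 0.49 in place of 0.29, that of MSC with bFGF minus embryonic stem cells 0.07 in place of -0.00, and that of MSC without bFGF minus embryonic stem cells -0.02 in place of 0.02. With median centring these last medians were -0.12 and -0.08. The cause was not tested. Over the 37 genes, 1 call changed with scaling: Hoxa10 in MSC with bFGF minus embryonic stem cells was called with a loess curve removed (1.11). With no floor, embryonic stem cells stood above MSC with bFGF for 2 genes, above MSC without bFGF for 2 and above osteoblasts for 4, in place of 1, 1 and 2. With the floor at the 75th percentile 0 Hox genes were called higher or lower in any comparison, since no Hox level passed it: the highest, 7.77, lay under that array's limit of 8.05. The calls thus rest on genes of low level. Background correction could not be varied without scanner files, which were not used here. No paired analysis was possible because each group had 1 array and no result came from a test.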
